A study of Mus musculus with 6 samples.

Results

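Peaks of open chromatin that lie in intron 1 of a transcript, over 5 kb from the nearest start site of the deposited annotation, were examined in organoids from the small intestine of young and aged mice. They were taken from the deposited peak annotation by class and position alone. A peak was included when its annotation was intron 1, its nearest transcription start site (TSS) was that of a protein-coding gene, and the distance to that TSS was over 5 kb and at most 50 kb in either direction. This gave 10142 of 156733 consensus peaks (6.47%), named for 3953 genes. The assay was ATAC-seq, a reading of open chromatin by the insertions of Tn5, a transposase loaded with adapters. Organoids, self-organising cultures of epithelial stem cells and their progeny, came from untreated C57BL/6JRj mice of 2 to 3 months (young, 3 libraries) or 20 to 22 months (aged, 3 libraries). Cultures of both ages had been grown for 3 to 5 weeks and stood at passage 4 (replicate 1), 3 (replicate 2) or 2 (replicate 3), and each library was made from 100000 cells with 20 PCR cycles. Whether replicates stand for different animals is not stated in the labels; p-values therefore reflect the spread among these 6 libraries alone. Passage cannot be told apart from replicate number or culture code.

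Introns near the 5′ end of a gene are common sites of enhancers, the regulatory elements that bind transcription factors and act on promoters at a distance. They also hold start sites of shorter transcripts and of non-coding genes. In ATAC-seq both kinds of element appear as peaks, and the count in a peak reports how often Tn5 reached that stretch of DNA in the bulk culture, so a change in a minority of cells and a smaller change in all cells cannot be told apart.

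The 10142 peaks were narrow and mostly weak. Their median width was 262 bp (quartiles 146 and 467 bp), their median distance to the nearest TSS 14.2 kb, and the median transcript around them had 6 introns. Most, 8595 (84.7%), lay in an intron of the gene whose TSS was nearest, and 1547 lay in another gene, so a gene name below is that of the nearest TSS unless the host gene is named. The nearest TSS was upstream of 6912 peaks and downstream of 3230. A single peak represented 1761 genes, while 94 genes had 10 or more, led by Hipk2 with 23, Smad3 with 22, and Cobl and Smoc2 with 21 each. Their median level was 1.60 CPM (counts scaled to library depth), against 1.62 over all peaks, 3.47 for intron 1 peaks within 5 kb of a coding TSS and 10.3 for promoter peaks. CPM is given per peak and not per base, so wide peaks have higher values. Coordinates are on GRCm38.

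A small set of these peaks held another kind of element, an annotated transcript start inside the intron. Start positions came from RefSeq on GRCm38.p6, the same major build as the files. On the chromosomes that this table covers, 178 of 9765 peaks contained a RefSeq start, and for 95 of them it was a start of the nearest-TSS gene itself. The 178 peaks had a median width of 942.5 bp and a median of 19.3 CPM, against 255 bp and 1.53 CPM for the 9587 without one. Of the 300 bases around these starts (250 before, 50 after), a median 59.7% were G or C with 18 CpG dinucleotides in 198 windows, against 53% and 7 CpG in the 32544 RefSeq windows of the table. The windows of the 4 such peaks that differed with age, all lower in aged organoids, are printed here, followed by that of Bcar1, one of the 3 most accessible peaks of the set, which was not called. Each runs 5′ to 3′ on the strand of the transcript with every CpG in capitals. Shroom4 is chrX:6399782-6400081 on the plus strand, Ndrg4 chr8:95702806-95703105 plus, Gm52384 (inside Sh3pxd2a) chr19:47454954-47455253 plus, Gm38728 (inside Chst12) chr5:140518030-140518329 minus, and Bcar1 chr8:111732087-111732386 minus.
Shroom4: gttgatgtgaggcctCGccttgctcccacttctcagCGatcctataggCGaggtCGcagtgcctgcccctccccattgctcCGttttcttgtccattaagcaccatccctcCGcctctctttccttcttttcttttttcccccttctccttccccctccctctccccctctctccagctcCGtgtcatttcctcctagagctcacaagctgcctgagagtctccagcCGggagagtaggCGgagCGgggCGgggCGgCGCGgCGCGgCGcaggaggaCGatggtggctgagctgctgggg
Ndrg4: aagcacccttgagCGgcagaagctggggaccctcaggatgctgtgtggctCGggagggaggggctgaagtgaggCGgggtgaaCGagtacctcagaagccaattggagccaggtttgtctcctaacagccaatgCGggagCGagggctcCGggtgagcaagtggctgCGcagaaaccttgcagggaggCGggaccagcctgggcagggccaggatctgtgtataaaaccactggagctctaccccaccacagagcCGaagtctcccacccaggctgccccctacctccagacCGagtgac
Gm52384: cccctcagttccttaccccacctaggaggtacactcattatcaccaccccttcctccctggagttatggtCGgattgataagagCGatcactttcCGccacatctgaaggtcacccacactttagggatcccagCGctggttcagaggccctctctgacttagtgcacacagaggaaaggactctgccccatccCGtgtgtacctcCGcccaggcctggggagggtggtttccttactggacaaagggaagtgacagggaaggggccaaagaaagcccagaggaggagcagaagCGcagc
Gm38728: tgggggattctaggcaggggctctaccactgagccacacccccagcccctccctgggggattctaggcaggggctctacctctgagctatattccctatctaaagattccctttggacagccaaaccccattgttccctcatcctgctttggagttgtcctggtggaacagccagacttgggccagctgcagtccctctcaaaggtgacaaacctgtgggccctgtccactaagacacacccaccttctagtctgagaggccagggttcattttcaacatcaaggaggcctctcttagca
Bcar1: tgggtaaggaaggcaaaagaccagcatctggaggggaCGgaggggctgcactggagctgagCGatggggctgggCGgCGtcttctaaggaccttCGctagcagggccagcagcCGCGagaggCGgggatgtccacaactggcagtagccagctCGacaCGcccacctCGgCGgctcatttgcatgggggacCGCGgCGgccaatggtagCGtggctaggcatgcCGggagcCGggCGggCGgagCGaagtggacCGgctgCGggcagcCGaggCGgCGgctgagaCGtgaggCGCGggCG

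The 5 windows differ in their CpG content. Bcar1 has 30 CpG and 69.7% G or C, Shroom4 18 and 62.3%, Ndrg4 11 and 62.7%, Gm52384 7 and 57%, and Gm38728 none and 55.3%. Both strands of every window were searched for 14 short motifs: TGANTCA (named for AP-1), TTTATNG (for CDX factors), CAAAGTCCA (for HNF4), GTTAATNAT (for HNF1), AGATAAG (for GATA factors), GGGCGTG (for KLF and SP factors), CCGGAAG (for ETS factors), TGTTTAC (for FOX factors), CTTTGATG (for TCF and LEF factors), AGGGGGCG (for CTCF), GAAANNGAA (for IRF factors), GGGACTTTC (for NF-kB), GGAATG (for TEAD factors) and CAGCTG (an E-box). No motif of this list contains another whole. Of the printed windows, Gm38728 held the IRF and the E-box letters, Bcar1 held the KLF and SP letters, and the other 3 held none of the 14. The 198 windows have their start in an intron peak, but a window can run past the edge of its peak. In these, the ETS letters occurred in 14.6% (all RefSeq windows 8.91%), the KLF and SP letters in 12.1% (8.50%), CTCF in 8.59% (6.11%), CDX in 5.56% (10.8%) and AP-1 in 5.05% (7.79%). E-box letters were in 18.2% (16.4%) and TEAD letters in 13.6% (14.6%). These are matches of letters, not binding sites. The 198 windows were selected by a start in a peak, and had higher medians of G or C and of CpG than all RefSeq windows. The shares were not adjusted for either.

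The 6 libraries held 7278161 to 26093521 counts in peaks, the lowest being young 1. In that library 322 of the 10142 peaks had no count and the median peak had 11 counts, against 9 to 38 peaks without a count and medians of 31 to 44 in the other 5. Promoter peaks were present for 8 of 9 epithelial marker genes, and their summed level was 315 to 356 CPM in young and 343 to 359 CPM in aged libraries (Vil1 had none). Of 7 immune markers, 2 had a promoter peak, with summed levels of 9.61 to 11 CPM (young) and 9.29 to 10.2 CPM (aged), nearly all at Cd68, while Ptprc and Cd3e had none. Stromal markers had 3 of 7 (19.8 to 25.5 and 23.0 to 27.1 CPM, mostly Pdgfra), and endothelial and neural markers 1 of 6 (Kdr, 2.67 to 3.68 and 1.85 to 2.2 CPM). The part of other cell types in the results was not tested.

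The summed accessibility of these intron peaks did not differ between the ages beyond the spread of the libraries. They took up 5.22%, 5.16% and 5.28% of all counts in young libraries and 5.24%, 5.19% and 5.20% in aged ones. The means were 5.22 ± 0.0603% and 5.21 ± 0.0237% (SD, n = 3 each, 2-sided exact permutation p = 0.8, adjusted p = 0.9 over this share and 3 distance ranges). At 3 against 3 this test cannot give less than 0.1. Peaks over 5 to 10 kb, over 10 to 20 kb and over 20 to 50 kb from the TSS each held 1.71% to 1.76% of counts on average in either group (exact permutation p = 0.9, 0.9 and 0.6). As a share of counts outside the promoter class, the young libraries had 7.80%, 7.75% and 7.79% and the aged ones 7.87%, 7.84% and 7.83%. Every aged library lay above every young one by this measure, with means of 7.78 ± 0.0234% and 7.85 ± 0.0200% (exact permutation p = 0.1, the smallest possible). Promoter peaks themselves took 32.9 ± 0.637% of young and 33.6 ± 0.171% of aged counts (SD, n = 3, exact permutation p = 0.2).

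Single peaks were compared between aged and young libraries with edgeR's quasi-likelihood test on the counts, with Benjamini-Hochberg adjustment over all 132055 peaks that passed a filter on low counts, and a peak was called at an adjusted p under 0.05. Of the intron peaks, 8610 (84.9%) passed the filter and 1532 were too weak to test. The call was made for 70 peaks of 66 genes (0.813%), 48 higher and 22 lower in aged organoids, against 1.13% of all peaks tested (0.619% higher, 0.51% lower). The share called was no higher than among peaks at large. An unadjusted p under 0.05 was reached by 756 of the intron peaks and by 9.71% of all peaks. The median log2 fold change was 0.00 (5th to 95th percentile -0.49 to 0.53), beside -0.01 over all peaks tested. With the replicate number as a block the count rose to 189 (117 higher, 72 lower), against 2.67% of all peaks, and all 70 stayed among them. With DESeq2 it was 38 (25 higher, 13 lower), with every library thinned to the depth of the shallowest 21 (14 and 7), and without aged 3 it was 38 (23 and 15). Over all peaks these 3 settings called 876, 670 and 830, beside 1491 in the main test.

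**Figure D1:**
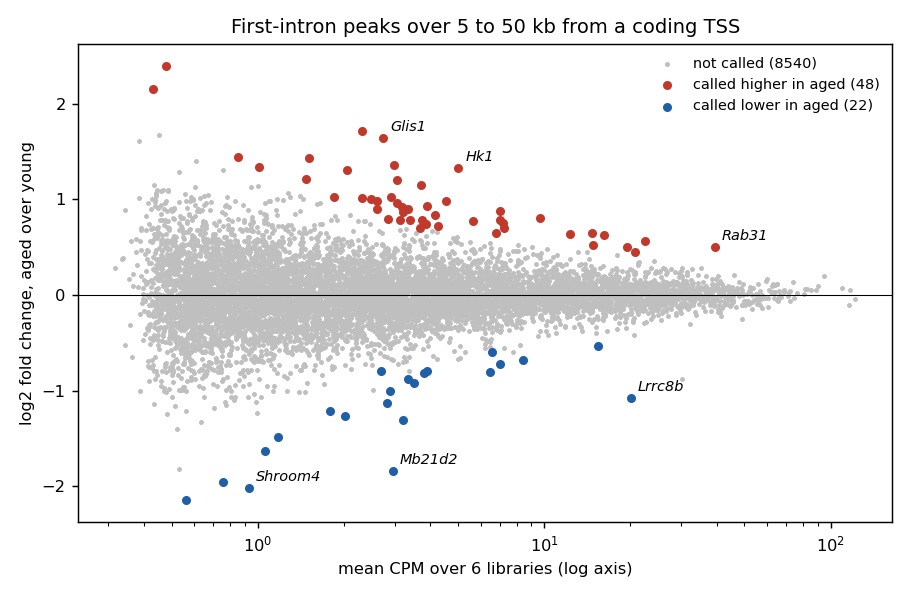
Log2 fold change (aged over young, vertical axis) against mean CPM over 6 libraries (log horizontal axis) for the 8610 tested intron 1 peaks, 1 point a peak. The 48 peaks called higher (red) and 22 called lower (blue) sit above and below a band of uncalled peaks (grey) that narrows as CPM rises.

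Called peaks were spread over the whole distance range. Of those over 5 to 10 kb from the TSS, 21 of 2860 tested were called (0.734%), of those over 10 to 20 kb 27 of 2807 (0.962%), and of those over 20 to 50 kb 22 of 2943 (0.748%). Peaks in the nearest-TSS gene gave 55 calls of 7268 (0.757%) and those in another gene 15 of 1342 (1.12%). Calls were scarcest among the weakest peaks, with 9 of the 2870 of lowest mean CPM, 36 of the next 2870 and 25 of the 2870 of highest CPM, where precision is greatest. Intron 1 peaks on either side of the distance limits had 35 called of 4944 within 5 kb (0.708%, 25 higher and 10 lower) and 20 of 1410 beyond 50 kb (1.42%, 6 higher and 14 lower). Peaks of other introns had 297 of 32414 (0.916%) and promoter peaks 234 of 16123 (1.45%, 89 higher and 145 lower). With the replicate block the counts were 89 within 5 kb (66 higher, 23 lower), 48 beyond 50 kb (19 and 29), 712 in other introns (393 and 319) and 585 in promoters (335 and 250), where the balance of higher and lower turned round. None of these differences in share between peak classes was tested.

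Among the called peaks the aged and young libraries were well separated. In 69 of the 70 no aged library overlapped a young one, and in all 70 the same-numbered aged and young libraries differed in the called direction, where the call itself favours such peaks. Over all tested intron peaks 14% did not overlap (682 higher, 520 lower), against 14.7% of all peaks (7.66% higher, 7.08% lower). The 48 higher peaks had a median log2 fold change of 0.89 (0.45 to 2.40) and the 22 lower ones a median of -1.04 (-0.53 to -2.15). A difference of 2-fold or more was found for 17 higher and 12 lower peaks, 29 of the 70 called. Over all peaks tested it was found for 875 of the 1491 called. The median mean level was 3.55 CPM for the higher, 3.09 for the lower and 2.21 for the uncalled peaks.

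The clearest loss of accessibility was at Lrrc8b, which encodes a subunit of the volume-regulated anion channel. Its peak at chr5:105439630-105440158, in intron 1 of 4 and 24.1 kb downstream of the TSS, had 27.3, 26.5 and 27.7 CPM in young 1, 2 and 3 and 12.3, 14.0 and 12.3 CPM in aged 1, 2 and 3. All aged libraries stood at about the same level, below every young one. The log2 fold change was -1.08 (SE 0.10, edgeR adjusted p = 2.6e-08), the smallest p of the set, and the adjusted p was at most 3.8e-06 under the 13 alternatives. The promoter peak of Lrrc8b had 37.9 ± 4.73 CPM in young and 41.1 ± 3.10 CPM in aged libraries (SD, n = 3, adjusted p = 0.745). Another tested intron 1 peak of Lrrc8b, 15.5 kb from the TSS, had a log2 fold change of -0.74 (adjusted p = 0.552).

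Shroom4, an X-linked gene of an actin-binding family, had lower accessibility at both of its intron 1 peaks. At chrX:6446528-6446748, 30.9 kb downstream of the TSS, the young libraries had 1.67, 1.43 and 1.41 CPM and the aged ones 0.226, 0.459 and 0.385 CPM. Every aged library was below every young one, with a log2 fold change of -2.02 (SE 0.35, edgeR adjusted p = 0.00076), called in every alternative in which it could be tested. The peak at chrX:6399774-6400947, which contains the RefSeq start of Shroom4 printed above, had 8.78, 8.37 and 9.0 CPM in young and 4.38, 5.55 and 5.82 CPM in aged libraries. It was lower by less (log2 -0.72, SE 0.15, adjusted p = 0.00727), and its call was lost without aged 1 (adjusted p = 0.101) and after thinning (0.0768). On chromosome X as a whole, 161 tested intron peaks had a median log2 fold change of -0.09, 34.8% were positive, and 3 were called (1 higher, 2 lower, 1.86%, against 0.813% of the intron peaks and 1.13% of all peaks). The chromosome X peaks' share of the intron peaks' counts was 1.21%, 1.25% and 1.25% in young libraries, and 1.18%, 1.20% and 1.19% in aged ones, without overlap (exact permutation p = 0.1, the smallest possible). Both called Shroom4 peaks are part of this share.

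Further lower peaks were found at Gatsl2, Mb21d2, Fyn and Pemt. Gatsl2 encodes a homologue of the arginine sensor of mTORC1, the kinase complex that couples growth to nutrients, and its peak at chr5:134119373-134119902 had 6.41, 3.94 and 3.66 CPM in young and 2.08, 1.79 and 1.43 CPM in aged libraries. The groups did not overlap although young 1 stood well above the other 2, and the call (log2 -1.31, SE 0.22, adjusted p = 0.00051) was kept in all 13 alternatives. Mb21d2, a gene for a protein of the nucleotidyltransferase fold, fell from 4.04, 4.20 and 5.65 CPM to 0.496, 1.42 and 1.93 CPM at chr16:28879634-28880240. Relative to its mean, the spread was wider in aged libraries (1.28 ± 0.725 CPM) than in young ones (4.63 ± 0.888 CPM, SD, n = 3). The Mb21d2 call (log2 -1.84, SE 0.28, adjusted p = 0.00026) was lost with DESeq2 (adjusted p = 0.0556). The Fyn peak at chr10:39376041-39376465, at -43.8 kb from the nearest Fyn TSS (negative values lie upstream), had 2.37, 2.25 and 3.93 CPM in young and 1.13, 0.917 and 1.5 CPM in aged libraries. Fyn, a Src-family tyrosine kinase, had 4 tested intron peaks, all with a negative log2 fold change (-1.27, -0.77, -0.59 and -0.43), of which only this one was called (adjusted p = 0.005), and without young 3 it was not (0.138). Pemt, the enzyme that makes phosphatidylcholine from phosphatidylethanolamine, had the highest level among the lower peaks after Lrrc8b, with 18.2 ± 1.67 CPM in young and 12.5 ± 0.891 CPM in aged libraries (SD, n = 3, log2 -0.53, adjusted p = 0.0107). The Pemt call was lost without young 1, aged 1 or aged 3 (adjusted p 0.0662 to 0.138).

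The remaining lower peaks that the naming rule picked were those of Ccser1 (log2 -1.63, adjusted p = 0.00573), Ldlrad4, an inhibitor of TGF-beta signalling (-1.49, 0.00501), Chst12, a chondroitin sulfotransferase (-1.21, 0.00851), Sh3pxd2a, a scaffold of podosomes (-1.13, 0.00211), and Peg10, an imprinted gene derived from a retrotransposon (-0.81, 0.0048). The Chst12 and Sh3pxd2a peaks are those that hold the starts of Gm38728 and Gm52384 printed above. Chst12 lost its call without young 3 (adjusted p = 0.114) or aged 3 (0.113), Peg10 without young 2 (0.0502) or aged 3 (0.0856), and Ccser1 without aged 1 (0.0599). Ldlrad4 lost it with DESeq2 (0.0619), as did Chst12 (0.0553). After thinning, Fyn (0.0598), Pemt (0.0539), Chst12 (0.403), Sh3pxd2a (0.0582) and Peg10 (0.533) were not called. The peak with the Ndrg4 start, at chr8:95702758-95703785 in intron 1 of Ndrg4 and named for Setd6, had 11.3, 10.7 and 9.21 CPM in young and 6.00, 6.74 and 6.59 CPM in aged libraries (log2 -0.68, SE 0.14, adjusted p = 0.00713). It was described for its sequence, after its values were seen, and was not called without aged 1 (0.0642) or after thinning (0.157).

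All 4 called peaks that contain a RefSeq start were thus lower in aged organoids, 4 of 175 tested (2.29%), against 61 called of 8105 (45 higher, 16 lower, 0.753%) among peaks without one. The 175 peaks had a median log2 fold change of 0.03, and 58.9% of the values were positive. Their share of the intron peaks' counts was 7.65 ± 0.332% for young and 7.87 ± 0.122% for aged cultures (SD, n = 3, exact permutation p = 0.3). With the replicate block 8 of the 175 were called, 3 higher and 5 lower (4.57%), so that the calls no longer lay on 1 side, and 173 of the 8105 (109 higher, 64 lower, 2.13%). With 4 calls the difference between the 2 kinds of peak is a description and was not tested.

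**Figure D2:**
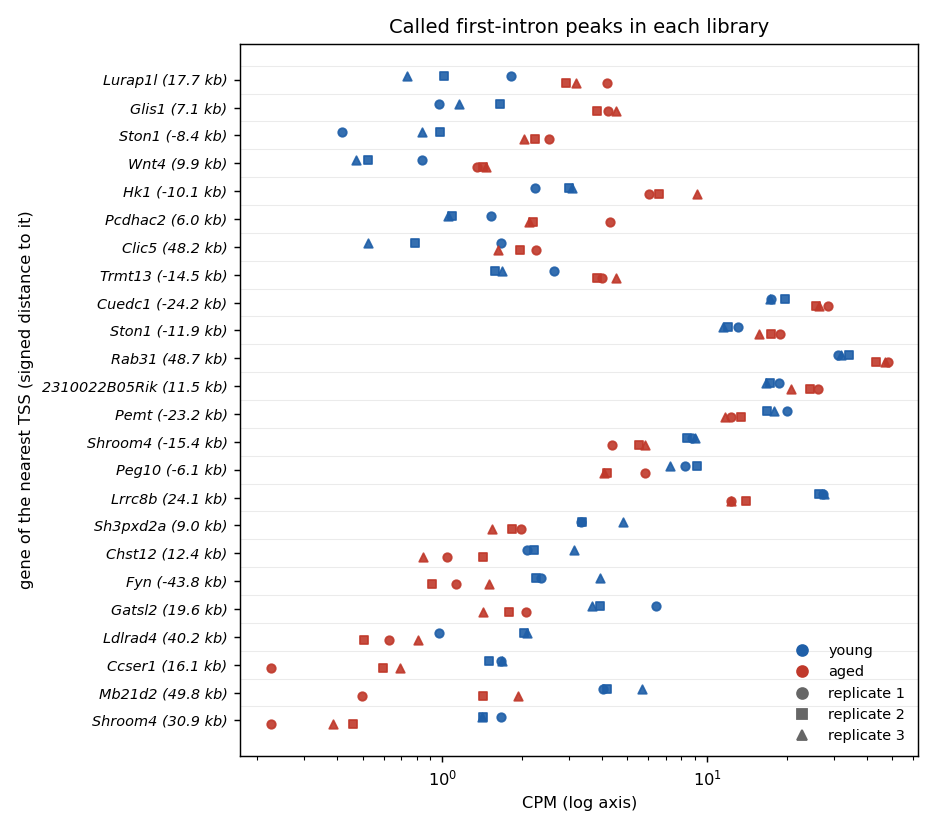
CPM in each library (log horizontal axis) for the 24 called peaks picked by the naming rule, young in blue and aged in red, with a marker for each replicate number and the signed distance to the nearest TSS in the row label. Aged and young points are apart in every row except Clic5, where young 1 (1.67 CPM) lies above aged 3 (1.62 CPM).

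Gains were led by Glis1, a zinc finger transcription factor related to the GLI effectors of Hedgehog signalling, with a called peak at each of a pair of sites. At chr4:107588001-107588580, 7.09 kb downstream of the TSS, it had 0.975, 1.65 and 1.15 CPM in young and 4.24, 3.85 and 4.55 CPM in aged libraries. At chr4:107602792-107603443, 21.9 kb downstream, the values were 1.25, 2.14 and 1.36 CPM in young and 4.74, 4.45 and 3.93 CPM in aged libraries. Every aged library was above every young one at both. The log2 fold changes were 1.64 (SE 0.22, adjusted p = 1.4e-05) and 1.36 (SE 0.22, adjusted p = 0.00018), and both calls were kept in all 13 alternatives. Of the other 8 intron 1 peaks of Glis1, 3 could be tested, with log2 fold changes of 0.02, -0.17 and 0.79, the last at 30.9 kb (adjusted p = 0.659).

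Hk1, hexokinase 1, which catalyses the entry of glucose into glycolysis, had its only intron peak at chr10:62300042-62300849, at -10.1 kb from the nearest TSS. It had 2.23, 3.00 and 3.09 CPM in young and 6.05, 6.56 and 9.17 CPM in aged libraries. The aged libraries were all above the young ones, with aged 3 the highest (log2 1.33, SE 0.19, adjusted p = 2.7e-05, kept in all 13 alternatives). Lurap1l had 1.81, 1.01 and 0.733 CPM in young and 4.20, 2.94 and 3.20 CPM in aged libraries at chr4:80928213-80928418. This was the steepest rise among the peaks named by rule (log2 1.72, SE 0.26, adjusted p = 9.4e-05), while the Lurap1l promoter peak had 46.0 ± 4.37 and 48.5 ± 1.97 CPM (SD, n = 3, adjusted p = 0.826). Ston1, an endocytic adaptor, rose at a narrow peak at chr17:88618090-88618221 from 0.418, 0.976 and 0.837 CPM to 2.53, 2.25 and 2.04 CPM (log2 1.43, SE 0.27, adjusted p = 0.00227). A stronger Ston1 peak, at -11.9 kb against -8.4 kb for the narrow one, had 13.1, 12.0 and 11.5 CPM in young and 18.9, 17.5 and 15.8 CPM in aged libraries (log2 0.52, SE 0.12, adjusted p = 0.0146). The first of these calls was kept in all 13 alternatives, and the other was lost without young 3 (0.0502), aged 1 (0.157) or aged 2 (0.0562) and after thinning (0.179).

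The most accessible peaks that rose did so by less. Rab31, a small GTPase of endosomal transport, had 31.2, 34.3 and 32.0 CPM in young and 48.0, 43.6 and 47.0 CPM in aged libraries at chr17:65723638-65724549, 48.7 kb from the TSS (log2 0.50, SE 0.09, adjusted p = 0.00062). Cuedc1, a gene for a ubiquitin-binding CUE domain protein, had 17.4, 19.6 and 17.2 CPM in young and 28.7, 25.7 and 26.5 CPM in aged libraries at chr11:88137718-88138493 (log2 0.56, SE 0.10, adjusted p = 0.00104). In neither did the groups overlap, and both calls were kept in all 13 alternatives. The neighbouring intron peaks did not move together: the other 3 tested peaks of Rab31 had log2 fold changes of 0.01, -0.25 and -0.05, and the other 8 of Cuedc1 ranged from -0.38 to 0.38, none called. The uncharacterised gene 2310022B05Rik had 17.6 ± 0.987 CPM in young and 23.8 ± 2.88 CPM in aged libraries (SD, n = 3, log2 0.45, adjusted p = 0.0268), and its call was lost without young 3 (0.0859), aged 1 (0.277) or aged 2 (0.116), with DESeq2 (0.07) and after thinning (0.0963).

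Further rises named by the rule were those of Wnt4, a Wnt ligand (log2 1.34, adjusted p = 0.0261), the clustered protocadherin gene Pcdhac2 (1.31, 0.00937), Clic5, a chloride intracellular channel protein of microvilli and stereocilia (1.21, 0.0385), and Trmt13, a tRNA methyltransferase (1.20, 0.00093). The Wnt4 peak had 0.836, 0.525 and 0.471 CPM in young and 1.35, 1.42 and 1.46 CPM in aged libraries. These are low levels, and the Wnt4 call was lost without young 2, young 3 or any 1 aged library (adjusted p 0.0614 to 0.136) and with DESeq2 (0.228). Clic5 stayed called without young 1, but its adjusted p ran from 0.0542 to 0.261 without any other library, 0.264 with DESeq2 and 0.893 after thinning. Pcdhac2 lost its call without young 2 (0.065) or aged 1 (0.186) and after thinning (0.284), and Trmt13 lost it only after thinning (0.109).

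Of all 70 called peaks, 22 (16 higher, 6 lower) stayed called whichever library was left out, and 14 did so under every alternative in which they were tested. Of the 14, 10 are described above (Lurap1l, both of Glis1, Ston1, Hk1, Rab31 and Cuedc1 higher, and Lrrc8b, Gatsl2 and Shroom4 lower). The other 4 are named here after their values were seen. They are Fam20a, a pseudokinase that assists the secretory-pathway kinase Fam20c (2.25 ± 0.262 CPM in young, 5.15 ± 0.306 CPM in aged libraries, log2 1.15, adjusted p = 0.00027), Klhl42, a cullin adaptor (4.93 ± 0.447 and 9.08 ± 0.719 CPM, 0.88, 0.0007), Map2k6, a kinase that activates p38 (7.08 ± 0.698 and 12.2 ± 1.78 CPM, 0.81, 0.00098), and Rab22a, an endosomal GTPase whose peak lies in the pseudogene Ppp4r1l-ps (11.5 ± 0.927 and 17.8 ± 2.65 CPM, 0.65, 0.00265). The errors are SDs with n = 3 in each group, and in none of the 4 did the groups overlap.

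Most genes contributed a single call. A pair of called peaks was found in 4 genes, chosen here after the calls were seen: Glis1, Ston1, Shroom4 and Lypd6, a gene for a GPI-anchored Ly6 protein. No gene had 3. All 7 tested intron peaks of Lypd6 had negative log2 fold changes (-0.05 to -0.82), and the 2 called ones were at -24.2 kb (log2 -0.80, adjusted p = 0.0438) and at 15.5 kb (log2 -0.82, adjusted p = 0.0154) from the nearest TSS. The downstream one had 5.29, 4.69 and 4.61 CPM in young and 3.11, 2.29 and 2.74 CPM in aged libraries. Its call was lost without young 1, aged 2 or aged 3 (adjusted p 0.0561 to 0.104), and that of the upstream one without any 1 of the 6 libraries (0.0711 to 0.234) and with DESeq2 (0.204). Neither was called after thinning (0.257 and 0.22). Another Lypd6 peak, at -26202 bp, had an adjusted p of 0.0617, and with the replicate block 0.00048.

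**Figure D3:**
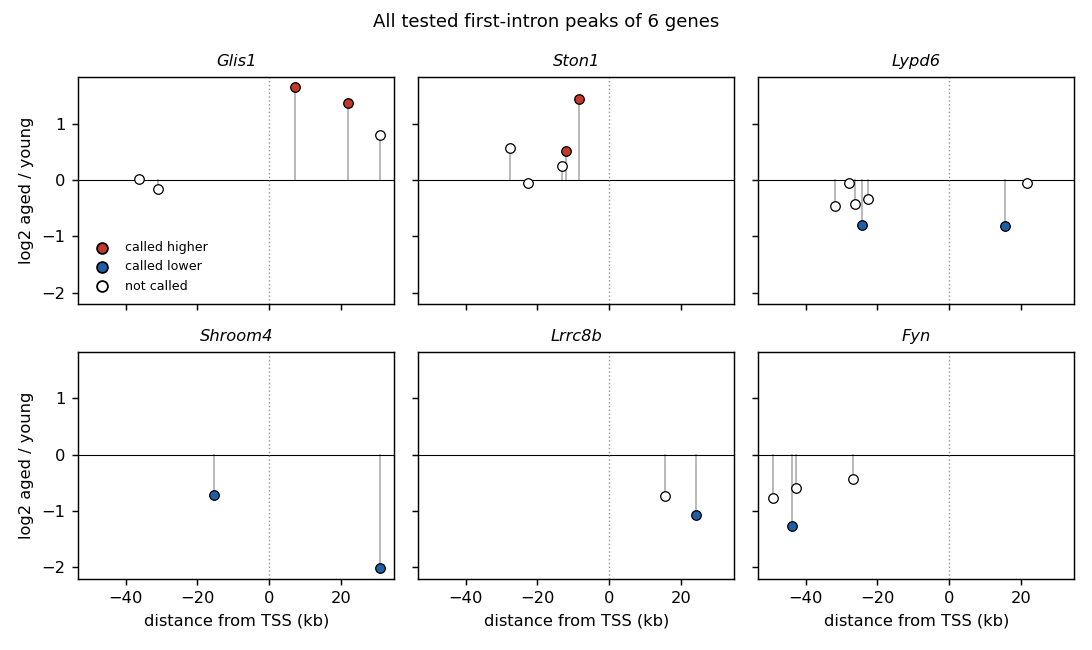
Log2 fold change (aged over young) of every tested intron 1 peak of 6 genes against its distance from the nearest TSS in kb, with filled points for called peaks and open points for uncalled ones. In Glis1 the called gains stand beside uncalled peaks from -0.17 to 0.79. The 5 tested peaks of Ston1 run from -0.05 to 1.43 with a median of 0.52. All 7 tested peaks of Lypd6, all 4 of Fyn and both of Shroom4 and of Lrrc8b lie below 0.

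The promoter peaks of the same genes seldom passed the test, as was so for coding genes at large. Of the 70 called peaks, 47 (46 genes) had a tested promoter peak within 1 kb of the TSS. That promoter peak was called for 1 gene, Fam20a, which rose from 48.3 ± 3.67 to 67.3 ± 2.09 CPM (SD, n = 3, log2 0.49, adjusted p = 0.00037). Over all protein-coding genes with such a peak 1.31% were called, a share that 1 gene of 46 does not fall below. Shroom4 had no tested promoter peak by this rule, although its called peak at chrX:6399774-6400947 contains a RefSeq start of the gene. The called peak with the Ndrg4 start was set beside the promoter peak of Setd6. The promoter differed in the same direction as the intron peak in 33 of 47, and by less in 47 of 47, where the intron peaks had been chosen by their size and the promoters had not. The median log2 fold change of the promoters was 0.09 beside higher and 0.00 beside lower intron peaks. Wnt4 and Htr4 came nearest among the uncalled ones in size, with promoter log2 fold changes of 1.05 (adjusted p = 0.244) and -0.62 (adjusted p = 0.147) beside 1.34 and -1.0 in the intron, both picked after the values were seen. The Wnt4 promoter peak was weak, at 0.648 ± 0.609 CPM in young and 1.66 ± 0.391 CPM in aged libraries. That of Htr4 had 5.61 ± 1.15 and 3.79 ± 1.10 CPM (SD, n = 3).

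**Figure D4:**
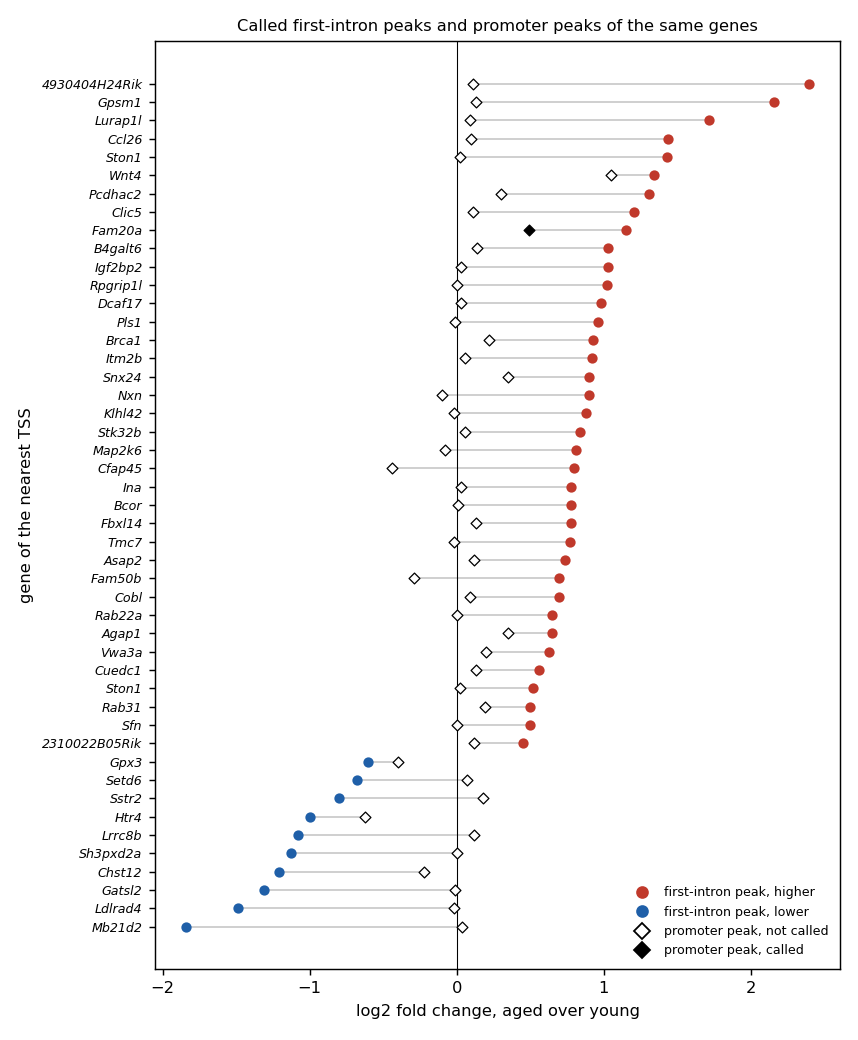
Log2 fold change (aged over young) of 47 called intron 1 peaks (circles, red higher, blue lower) and of the promoter peak of the same gene (diamonds, filled where called), 1 row a peak. The diamonds crowd around 0, and only that of Fam20a (0.49) is filled.

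Genes of the pathways that run the intestinal epithelium were then examined through 14 lists of 555 genes. A peak was placed in a list by the gene of its nearest TSS, not by its host gene. The 178 genes with an intron peak had 621 peaks, of which 542 could be tested. None was called by edgeR, against 1.13% of all peaks, 38 had an unadjusted p under 0.05 (all peaks 9.71%), and DESeq2 called none. The median log2 fold change was -0.01 (-1.07 to 0.97), equal to that of all peaks tested. With the replicate block 4 of the 542 were called, against 2.67% of all peaks, among them peaks at Smad1 (higher), Gsk3b and Cry1 (lower). The lists do not hold Wnt4, Map2k6 or Ldlrad4, whose called peaks are described above, so these counts cover the listed genes only.

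Among transcription factors of intestinal identity, 41 tested peaks had a median of 0.01, and the smallest p values belonged to Foxa3 (log2 0.72, adjusted p = 0.358) and Pparg (0.94, 0.38). Among stem cell and Wnt genes, 87 peaks had a median of -0.09 and 39.1% were positive. Smoc2, a stem cell marker, had 20 tested peaks, 13 of them positive, with a median of 0.12. Its lowest p was at 40.4 kb from the TSS, where the young libraries had 1.11, 0.826 and 1.41 CPM and the aged ones 1.72, 1.93 and 1.70 CPM (log2 0.70, adjusted p = 0.331). All 5 tested peaks of Wnt3, the Paneth cell Wnt ligand, were negative (-0.14 to -0.56), none called. The best of them had 2.37, 2.37 and 2.30 CPM in young and 1.85, 1.42 and 1.5 CPM in aged libraries, without overlap (adjusted p = 0.379). The 15 Notch pathway peaks had a median of 0.04, with Notch2 at 0.32 (adjusted p = 0.606) and the Notch inhibitor Numb at -0.71 (0.67).

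In the BMP and TGF-beta list, 49 peaks had a median of 0.04. Smad1, a transducer of BMP signals, had 1.67, 3.19 and 3.77 CPM in young and 3.29, 5.14 and 5.28 CPM in aged libraries at chr8:79392393-79393441. The groups overlapped, but each aged library exceeded the young one of its number, and the adjusted p was 0.313 without and 0.0175 with the replicate block (log2 0.56 and 0.64). This Smad1 peak was not called in 12 of 13 alternatives (adjusted p up to 0.781). The other 6 Smad1 peaks ranged from -0.16 to 0.71. Smurf1, a ubiquitin ligase that acts on Smads, had 6 of 7 peaks positive, the lowest p at log2 0.43 (adjusted p = 0.505). EGF receptor and MAP kinase genes had 28 peaks with a median of -0.03, led by the feedback inhibitors Spred2 (0.53, adjusted p = 0.395) and Errfi1 (-0.27, 0.606).

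Cell junction and polarity genes had 74 peaks with a median of 0.02. Cldn2, which forms a cation pore in the tight junction, had 18.7, 14.5 and 17.9 CPM in young and 13.9, 13.9 and 12.4 CPM in aged libraries (log2 -0.33, adjusted p = 0.284, and 0.0493 without young 2). The Cldn2 peak was not called in 12 of 13 alternatives (adjusted p up to 0.709). The polarity gene Pard6b stood at 0.93 (adjusted p = 0.346) at 0.366 to 1.26 CPM. Enterocyte genes had 24 peaks with a median of 0.03 and no unadjusted p under 0.05, the nearest being the fatty acid handling genes Cd36 (0.37, adjusted p = 0.545) and Acsl5 (0.18, 0.704). Secretory lineage genes had only 6 tested peaks, with a median of -0.17, among them Rfx6 of enteroendocrine cells (-0.60, 0.666) and Pou2f3 of tuft cells (-0.64, 0.703).

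No peak placed in the inflammation or interferon lists was called. A called peak in intron 1 of Tnip1, a gene of the NF-kB list, was named for Gpx3, whose TSS was nearest. It had 7.97 ± 0.243 CPM in young and 5.22 ± 0.645 CPM in aged libraries (SD, n = 3, log2 -0.60, edgeR adjusted p = 0.0416). Its call was lost with DESeq2, after thinning and without any 1 library. The NF-kB list had 15 peaks with a median of 0.10 and 73.3% positive. All 3 peaks of Map3k14, the kinase of the alternative NF-kB pathway, were positive, and the one with the lowest p had 13.7, 11.7 and 10.8 CPM in young and 15.2, 13.9 and 15.3 CPM in aged libraries (log2 0.32, adjusted p = 0.311). The chemokine gene Ccl28 had 1.11, 0.488 and 2.25 CPM in young and 1.49, 1.93 and 2.77 CPM in aged libraries, with overlap (log2 0.74, adjusted p = 0.615, and 1.69 with 0.00649 without young 3). The Ccl28 peak was not called in 12 of 13 alternatives. The interferon and antigen presentation list had 39 peaks with a median of 0.08 and 59% positive. Socs2, a feedback inhibitor of cytokine receptors, stood at 0.48 (adjusted p = 0.431). AP-1 and immediate early genes had 9 peaks with a median of 0.04, among them Nr4a2 (0.16, 0.626) and Bach1 (0.20, 0.704).

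Insulin, mTOR and FOXO genes had 44 peaks with a median of -0.05. Gsk3b, a kinase of both insulin and Wnt signalling, had 11.6, 8.41 and 8.43 CPM in young and 5.87, 7.25 and 5.05 CPM in aged libraries at chr16:38135489-38136266. No aged library reached a young one, and the adjusted p was 0.0571 (log2 -0.60, SE 0.16), 0.00214 with the replicate block, and 0.0221 to 0.044 without aged 2, young 2 or young 3. It was also under 0.05 with library totals alone (0.0464), with no filter (0.0303) and with passage as a covariate (0.0329). In the remaining 6 of 13 alternatives the peak was not called (adjusted p up to 0.428). These were RLE factors, DESeq2, thinning, and leaving out young 1, aged 1 or aged 3. The other 10 tested Gsk3b peaks were not called, and the 11 together ran from -0.60 to 0.97 with a median of -0.03. All 4 tested peaks of the receptor gene Igf1r were negative (-0.10 to -1.07, lowest adjusted p = 0.262). Clock genes had 23 peaks with a median of -0.09 and 34.8% positive. Cry1, a repressor of the clock, had 1.39, 0.713 and 1.73 CPM in young and 0.767, 0.459 and 0.501 CPM in aged libraries (log2 -1.07, adjusted p = 0.22, with the block 0.0435, and without young 2 0.0308). The groups overlapped, and the Cry1 peak was not called in 10 of the 12 alternatives that tested it (adjusted p up to 0.755). Per2 stood at -0.22 (adjusted p = 0.465) at 35.2 to 54.3 CPM.

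**Figure D5:**
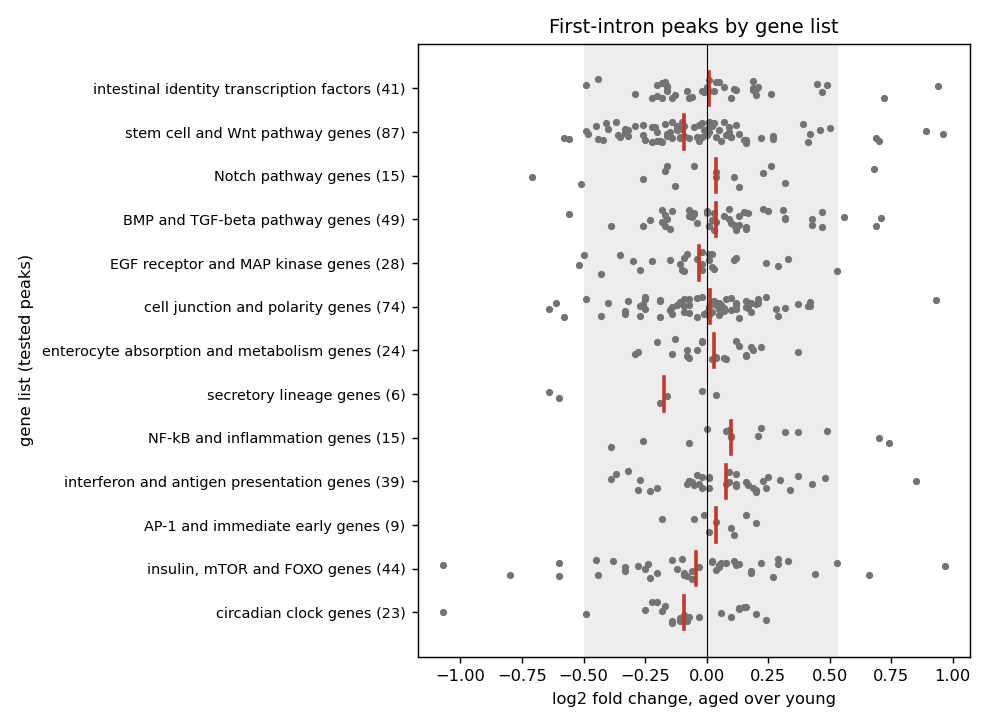
Log2 fold change (aged over young) of each tested intron 1 peak of 13 gene lists (grey points), with the list's median as a red bar and the number of tested peaks in brackets. The grey band spans the 5th to 95th percentile of all tested intron 1 peaks (-0.49 to 0.53), and all 13 medians lie between -0.17 and 0.10.

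None of the 3 most accessible intron peaks was called. Mbnl2, a splicing regulator, had 134, 111 and 128 CPM in young and 128, 118 and 114 CPM in aged libraries (log2 -0.04, SE 0.08, adjusted p = 0.919). Gramd2 had 133, 96.1 and 118 CPM in young and 120, 117 and 119 CPM in aged libraries (0.05, SE 0.08, 0.919). Bcar1, the focal adhesion adaptor p130Cas whose start is printed above, had 111, 104 and 105 CPM in young and 113, 110 and 113 CPM in aged libraries (0.07, SE 0.07, 0.817). In all 3 the aged and young libraries overlapped, and the standard errors were among the smallest of the peaks named.

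Accessibility in relation to passage was examined in the same counts, with age held in the model. Of the 8610 intron peaks none was called by edgeR (smallest adjusted p = 0.206), 524 (6.09%) had an unadjusted p under 0.05, and DESeq2 called none. Over all peaks 4 were called (0.00303%) and 5.27% had an unadjusted p under 0.05. Without young 2 the count of intron peaks was 3 (53 over all peaks), and without aged 1 it was 1 (20 over all peaks).

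Peaks stood close to the distance limits on both sides, at levels from weak to strong. Just inside 5 kb stood peaks of Agt at 5001 bp (1.16 ± 0.296 CPM in young, 0.998 ± 0.112 CPM in aged libraries, SD, n = 3) and Alx4 at 5007 bp (2.51 ± 0.673 and 2.27 ± 0.379 CPM), and just outside it Zfand3 at 5000 bp (3.05 ± 0.386 and 2.95 ± 1.06 CPM). Just inside 50 kb stood Irf2 at 49997 bp (2.88 ± 0.207 and 2.88 ± 0.434 CPM) and Eml4 at 49993 bp (0.786 ± 0.0516 and 0.338 ± 0.188 CPM). Just outside it stood Gpr39 at -50008 bp (1.02 ± 0.0607 and 0.913 ± 0.129 CPM) and the far stronger Sec14l1 at 50045 bp (49.7 ± 2.82 and 52.2 ± 1.44 CPM).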

How the data were processed

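Counts per consensus peak were deposited by the authors, 1 column per library, beside a table that annotates each peak (GRCm38). They are whole numbers from featureCounts, not normalised, per the file headers. Per the submitters' processing notes the tools included Trim Galore 0.6.4, BWA 0.7.17-r1188, Picard 2.23.1, MACS2 2.2.7.1 and featureCounts 2.0.1. The treatment of duplicates, the Tn5 offset, and whether reads or fragments were counted are not given in the sources used here. Reads carry no molecular identifiers, so precision from depth covers counting error only.

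Counts of all peaks were fitted with edgeR 4.0.16 (R 4.3.3): filterByExpr with a minimum count of 10, TMM scaling, robust quasi-likelihood test of age without a block, and Benjamini-Hochberg adjustment over all 132055 peaks. The passage trend came from a model with age and passage. CPM used TMM-scaled library sizes. SEs were derived from the log2 fold change and its F value. Shares of counts were compared with the 2-sided exact permutation test (SciPy 1.17.1). The fit was tested on simulated data. Start positions in the count table are 1 bp below those of the annotation, whose coordinates are printed. RefSeq sequences are from GRCm38.p6, whose table held 2938 of the 3953 gene symbols and no chromosome 18.

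In the titles, libraries of equal number carry 1 culture code and 1 passage across the ages. The main test and the permutation tests of shares left this pairing out. Libraries of equal number were taken as pairs in the replicate block, the sign-flip test and the naming rule. Their deviations from the group means correlated at r = 0.118, 0.167 and 0.177 over the intron peaks (0.0908, 0.167 and 0.181 over all peaks), and the highest correlation was always within a number. The descriptions give other culture codes than the titles for replicates 2 and 3.

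Alternatives were DESeq2 1.42.0, RLE factors, library totals alone, no low-count filter, thinning to the shallowest library, each library left out, the replicate block and passage as a covariate. Named peaks, 1 per gene and not in another gene's intron, were the 8 higher and 8 lower called ones with the largest log2 fold change (same sign in 3 pairs, at least 1 CPM in the higher group), the 4 higher and 4 lower called ones of highest CPM, the 2 of smallest p per list and the 3 of highest CPM; genes with at least 3 called peaks and passage calls gave none. Results for 1 list and 1 further gene are not reported here. The peak set and all lists were chosen with earlier results of these data known.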

Additional observations from a re-analysis of the deposited data

How the results depend on the processing

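Of the 13 alternatives for the age comparison, 4 moved the count of 70 called intron peaks by over 1.5 times: DESeq2 gave 38, thinning 21, the replicate block (the pairing by number) 189, and leaving out aged 3 gave 38. Over all peaks the main count of 1491 became 876, 670, 3522 and 830 in these 4 settings. Without 1 library the count of intron peaks ran from 38 to 91 (without young 2, 48 higher and 43 lower). Over all peaks it ran from 830 to 1902. The others gave 70 intron peaks (RLE factors), 71 (library totals, 43 higher and 28 lower), 85 (no filter) and 78 (passage as covariate). Over all peaks they gave 1495, 1482, 1779 and 1567. No called peak named by rule reversed its direction; the uncalled Mbnl2 went from -0.04 to 0.01 without young 1 and Gramd2 from 0.05 to -0.07 without young 2. The block ended no call of the 70, and gave a call to 4 list peaks. For passage, the count of 0 became 1 without the filter and ran from 0 to 3 without 1 library. Over all peaks the count of 4 became 32 without the filter and ran from 0 to 53 without 1 library. The difference in the share of counts (aged minus young, in percentage points) was -0.0107, became 0.066 over peaks outside the promoter class, and ran from -0.0417 to 0.0186 without 1 library. An exact sign-flip test over the 3 pairs gave p = 1. The cause of these shifts was not tested; thinning and leaving out libraries use fewer counts, and 5570 intron peaks passed the filter after thinning. In young 1, the shallowest library, a median intron peak had 11 counts, which limits the precision of weak peaks.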
